A study of Mus musculus with 12 samples.

Results

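In mouse liver, 9 genes that mark lymphocytes were followed: the T cell genes Cd3e, Cd3d, Cd3g, Cd4 and Cd8a, the B cell genes Cd79a, Cd79b and Ms4a1, and Nkg7 of natural killer (NK) and cytotoxic T cells. They were taken by symbol from a table of read counts, and all 9 were present among its 27022 genes. The RNA came from 6 female SJL/J mice aged 11 weeks, of which 3 had a control diet with 50 ppm iron throughout and 3 were changed at 6 weeks of age to an iron-loaded diet with 2% carbonyl iron. The mice of one diet shared a cage, so diet and cage cannot be told apart. All mice were fasted and perfused before a 20 mg piece of the large liver lobe was taken. Each RNA was made into a library with the stranded mRNA kit of KAPA (called Trad-KAPA here), which fragments the RNA and reads along whole transcripts, and into another with the Lexogen QuantSeq FWD kit (3’-LEXO), which primes at the poly(A) tail and reads near the 3’ end. This gave 12 libraries, and a mouse number names the same RNA in both kits. The counts of a library added up to between 13834682 and 16553616 with Trad-KAPA and between 10724672 and 14104236 with 3’-LEXO. Iron-loaded mice 2 and 3 differed less from each other than any other pair of mice on one diet, but by more than counting noise, and were kept as separate mice.

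T cells recognize antigen through a receptor whose variable chains are held at the membrane by the CD3 chains, which carry the signal into the cell. Cd4 and Cd8a encode the co-receptors that bind MHC class II and class I on the presenting cell. B cells bind antigen with membrane immunoglobulin, which signals through the CD79A and CD79B pair. The liver holds resident and passing lymphocytes between its hepatocytes and is known for a large share of NK cells. In bulk tissue, fewer cells of a type and less RNA per cell cannot be told apart.

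In the GENCODE M21 annotation of GRCm38, all 9 genes are protein coding. Cd3g, Cd3d and Cd3e lie together on chromosome 9 between 44969572 and 45009627, and Cd3d (plus strand) and Cd3g (minus strand) start 1355 bp apart in opposite directions. The exons of Cd3e overlap those of Gm48719, on the other strand, by 135 bp, and the strand setting of the counting is not given in the sources used here. Cd4 (124864692 to 124888221, minus strand) and Cd8a (71373427 to 71379173, plus strand) are on chromosome 6. Cd79a (24897381 to 24902197, plus strand) and Nkg7 (43437073 to 43438249, plus strand) are on chromosome 7. Cd79b lies on chromosome 11 (106311341 to 106314762, minus strand) and Ms4a1 on chromosome 19 (11249675 to 11266241, minus strand). Since one kit counts molecules at their 3’ ends, the last bases of the transcript are shown for the 3 members whose level differed between the kits in the test given further on, and for Cd79b, the partner of Cd79a. Each run is 30 bases of the longest protein-coding transcript, read 5’ to 3’ from the GENCODE M21 transcript sequences, with the poly(A) signal letters nearest the end (AATAAA or ATTAAA) in capitals.
Cd79a: tttttacctatatttaaactctgagaacac
Cd79b: ctgtggAATAAAtaatgtgcctgacaccag
Cd4: cagaaaaataaaggctataAATAAAatgca
Cd3d: gtaagtATTAAAttagtacaccccggtgct
The runs of Cd79a and Cd4 end with the annotated transcript, that of Cd79b ends at base 1430 of 1431 and that of Cd3d at base 1612 of 1617. Cd79a was the only member of the 9 without either hexamer in its last 50 bases. Of all 16478 protein-coding genes in the table, 77.62% had one in that stretch.

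All members had few reads, and all but Cd4 had at most 30 in any library. In this report a level is given in CPM, the reads of a gene per 1 M reads counted in that library, and 3 reads correspond to 0.181 to 0.280 CPM. The members together had 105 to 214 reads per library in Trad-KAPA and 54 to 117 in 3’-LEXO. Their summed level in Trad-KAPA was 12.9, 9.91 and 7.59 CPM in control mice 1, 2 and 3 and 11.0, 9.02 and 13.9 CPM in iron-loaded mice 1, 2 and 3. In 3’-LEXO it was 8.36, 6.44 and 3.83 CPM in the controls and 7.29, 7.27 and 4.91 CPM in the iron-loaded mice. The diets overlapped in both kits. Control mouse 1 had the highest and control mouse 3 the lowest sum of the controls with either kit, whereas iron-loaded mouse 3 had the highest sum of its diet in Trad-KAPA and the lowest in 3’-LEXO.

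**Figure D1:**
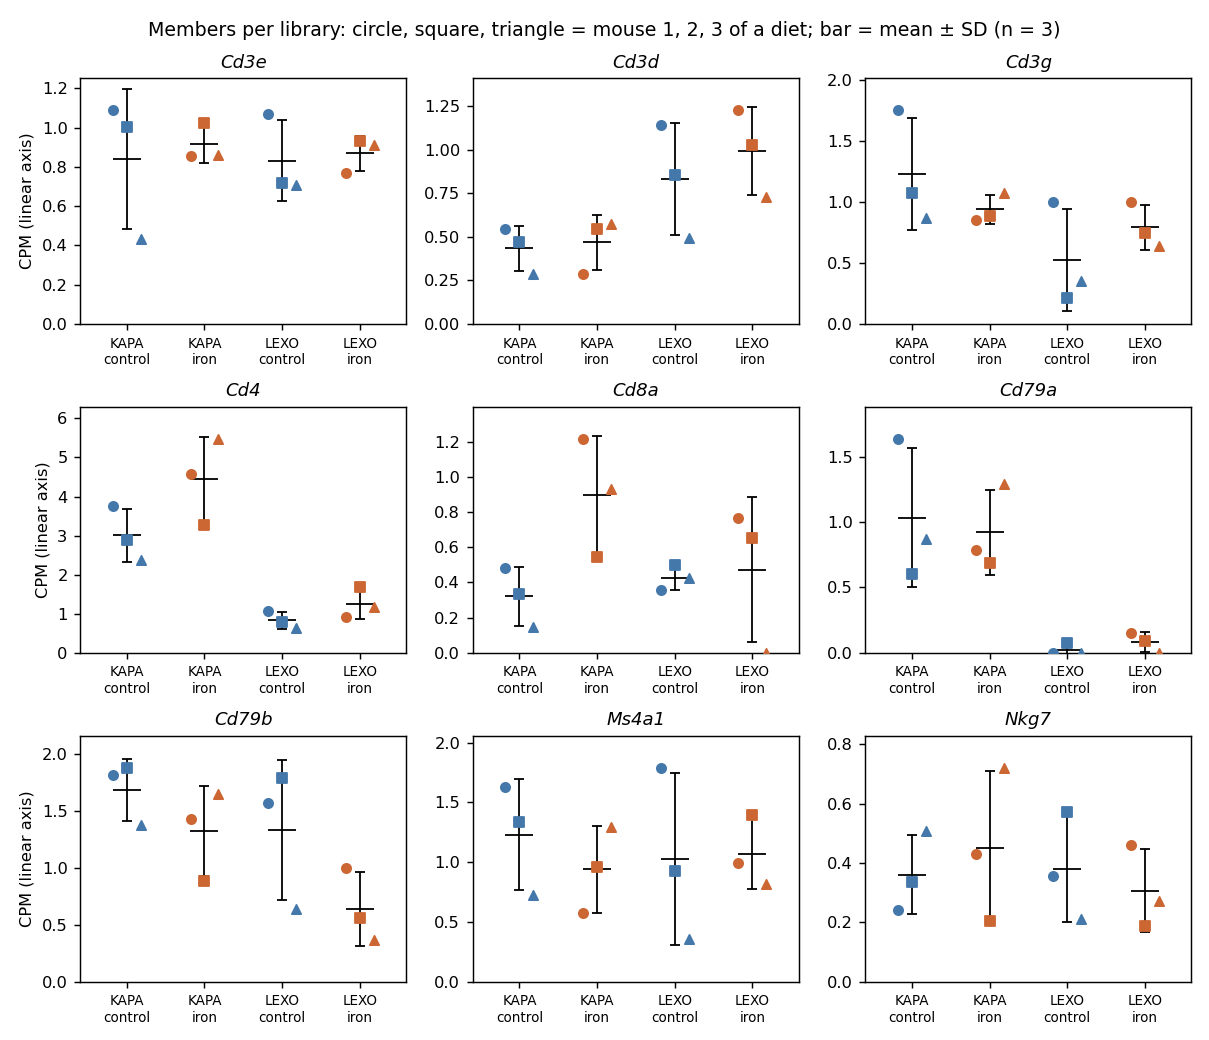
Level of each of the 9 lymphocyte genes in every library, in CPM on a linear axis that differs between panels, with circles, squares and triangles for mice 1, 2 and 3 of a diet and bars for the mean ± SD (n = 3). The diets overlap in every panel except for Cd8a in Trad-KAPA, and Cd79a is near 0 in all 3’-LEXO libraries.

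The 3 CD3 genes, whose protein chains assemble with the T cell receptor, had similar reads on both diets. Cd3e had 18, 15 and 6 reads in control mice 1, 2 and 3 and 12, 15 and 12 in the iron-loaded mice with Trad-KAPA, and 15, 10 and 10 against 10, 10 and 10 with 3’-LEXO. Its level was 0.842 ± 0.356 CPM (SD, n = 3) on the control diet and 0.915 ± 0.0953 CPM on the iron-loaded diet in Trad-KAPA, and 0.832 ± 0.208 and 0.869 ± 0.0896 CPM in 3’-LEXO. Control mouse 3 was the low library in Trad-KAPA. Cd3d had 9, 7 and 4 reads in the controls and 4, 8 and 8 in the iron-loaded mice with Trad-KAPA, and 16, 12 and 7 against 16, 11 and 8 with 3’-LEXO. For Cd3g the reads were 29, 16 and 12 against 12, 13 and 15 with Trad-KAPA, and 14, 3 and 5 against 13, 8 and 7 with 3’-LEXO. Control mouse 1 was the highest library of Cd3g in each kit. In the edgeR quasi-likelihood test of iron-loaded against control mice, the log2 fold change of Cd3e was 0.04 ± 0.39 (SE; adjusted p = 0.949) in Trad-KAPA, and in 3’-LEXO its 95% interval ran from -0.88 to 0.88 around no change (adjusted p = 1.00). The log2 fold change of Cd3g was -0.46 ± 0.36 in Trad-KAPA (adjusted p = 0.387) and 0.54 ± 0.58 in 3’-LEXO (adjusted p = 0.590). Cd3d had too few reads for the test in Trad-KAPA and gave 0.20 ± 0.43 in 3’-LEXO (adjusted p = 0.803).

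Cd4, the co-receptor of helper T cells that is also found on some myeloid cells, was the member with the most reads in Trad-KAPA. Its reads there were 62, 43 and 33 in the controls and 64, 48 and 76 in the iron-loaded mice, or 3.00 ± 0.688 CPM against 4.44 ± 1.10 CPM (SD, n = 3 each). With 3’-LEXO it had 15, 11 and 9 reads against 12, 18 and 13, or 0.832 ± 0.220 CPM against 1.26 ± 0.385 CPM. The mean was higher on the iron-loaded diet with both kits, but iron-loaded mouse 2 in Trad-KAPA and iron-loaded mouse 1 in 3’-LEXO were below control mouse 1. The log2 fold change was 0.49 ± 0.25 (SE) in Trad-KAPA (edgeR, adjusted p = 0.203) and 0.53 ± 0.41 in 3’-LEXO (adjusted p = 0.446). The 95% intervals ran from -0.08 to 1.06 and from -0.38 to 1.44.

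Cd8a, the co-receptor of cytotoxic T cells, was the only member whose diets did not overlap in a kit. In Trad-KAPA it had 8, 5 and 2 reads in the controls and 17, 8 and 13 in the iron-loaded mice, which is 0.321 ± 0.170 CPM against 0.898 ± 0.335 CPM (SD, n = 3). In 3’-LEXO it had 5, 7 and 6 reads in the controls and 10, 7 and 0 in the iron-loaded mice, and there the diets overlapped. A count of 0 in iron-loaded mouse 3 allows a level of up to 0.273 CPM, counting error only. Separate diets were common in these data: among the genes tested, 41.2% in Trad-KAPA and 31.3% in 3’-LEXO had no overlap of CPM between the diets. Cd8a had too few reads for the test in both kits. Without the filter on low counts its log2 fold change in Trad-KAPA was 1.37 ± 0.58 (edgeR, unadjusted p = 0.0206, adjusted p = 0.123), and in 3’-LEXO it was 0.07 ± 0.72 (adjusted p = 0.976).

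All 3 B cell genes had a higher mean on the control than on the iron-loaded diet in Trad-KAPA, and none of these differences passed the test. Cd79b, the signalling partner of CD79A in the B cell receptor, had 30, 28 and 19 reads in the controls and 20, 13 and 23 in the iron-loaded mice with Trad-KAPA, and 22, 25 and 9 against 13, 6 and 4 with 3’-LEXO. Its level was 1.69 ± 0.273 CPM against 1.32 ± 0.393 CPM in Trad-KAPA and 1.33 ± 0.611 CPM against 0.640 ± 0.324 CPM in 3’-LEXO (SD, n = 3 each). Control mouse 3 was the lowest control with both kits and lay within the range of the iron-loaded mice. The log2 fold change was -0.42 ± 0.30 in Trad-KAPA (edgeR, adjusted p = 0.356) and -1.07 ± 0.51 in 3’-LEXO (unadjusted p = 0.0581, adjusted p = 0.215), where the 95% interval ran from -2.22 to 0.07.

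Ms4a1 encodes CD20, a surface protein of mature B cells. It had 27, 20 and 10 reads in the controls and 8, 14 and 18 in the iron-loaded mice with Trad-KAPA, and 25, 13 and 5 against 13, 15 and 9 with 3’-LEXO. In both kits the control reads fell over a wider range than those of the iron-loaded mice, with control mouse 1 at the top. Its log2 fold changes were -0.46 ± 0.42 (edgeR, adjusted p = 0.474) and 0.01 ± 0.54 (adjusted p = 0.994). Cd79a had 27, 9 and 12 reads against 11, 10 and 18 in Trad-KAPA, with a log2 fold change of -0.25 ± 0.46 (adjusted p = 0.729). In 3’-LEXO Cd79a had 0, 1 and 0 reads in the controls and 2, 1 and 0 in the iron-loaded mice, too few for any statement on diet. A count of 0 there allows up to 0.213 to 0.273 CPM.

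Nkg7 encodes a granule protein of NK cells and cytotoxic T cells and was not tested in either kit for lack of reads. It had 4, 5 and 7 reads in the controls and 6, 3 and 10 in the iron-loaded mice with Trad-KAPA, and 5, 8 and 3 against 6, 2 and 3 with 3’-LEXO. The diets overlapped in both kits. Without the filter, its log2 fold change was 0.26 ± 0.66 in Trad-KAPA (edgeR, adjusted p = 0.836) and -0.36 ± 0.83 in 3’-LEXO (adjusted p = 0.841).

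Across the members, no difference between the diets passed the test. Of the 9 genes, 6 had enough reads to be tested in each kit, and edgeR called 0 of 6 in Trad-KAPA and 0 of 6 in 3’-LEXO at an adjusted p of 0.05, with 0 at an unadjusted p under 0.05 in either kit. DESeq2 also called 0 in each kit. Over all genes tested, 17.1% of 13151 were called in Trad-KAPA and 6.10% of 13301 in 3’-LEXO. The median log2 fold change of the tested members was -0.34 in Trad-KAPA, where that of all tested genes was 0.02, and 0.11 in 3’-LEXO, where that of all tested genes was 0.01. These medians are not over the same 6 genes, since Cd79a was tested only in Trad-KAPA and Cd3d only in 3’-LEXO. The intervals were wide: in both kits those of Cd3e, Cd3g and Ms4a1 reached beyond a log2 change of 0.35 in either direction. The widest of these, that of Cd3g in 3’-LEXO, ran from -0.75 to 1.84. Changes well above 0.35 could thus have been missed at this depth in those genes.

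**Figure D2:**
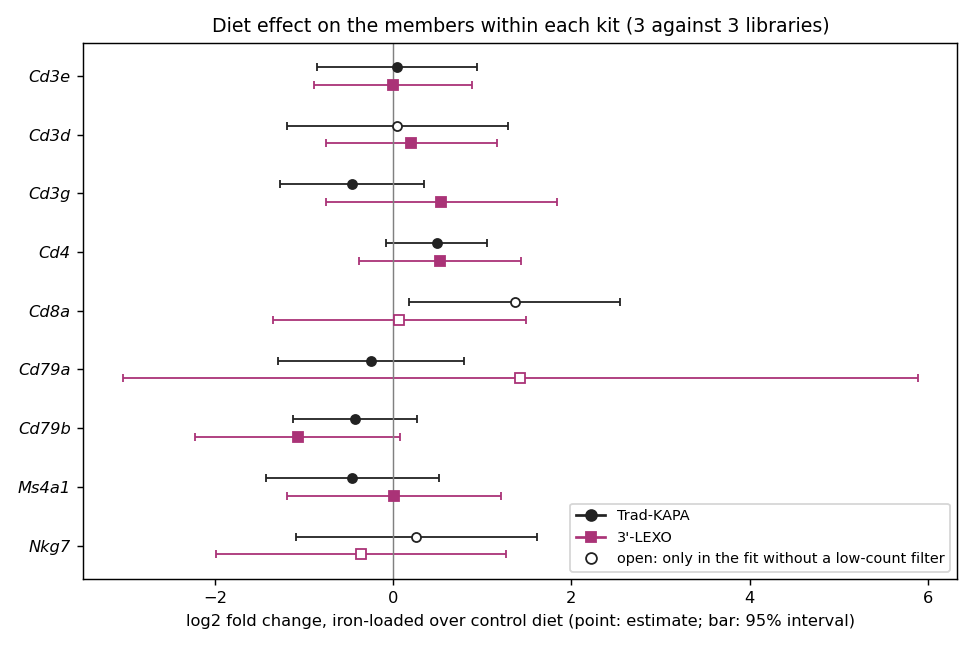
Log2 fold change of each lymphocyte gene, iron-loaded over control diet, with its 95% interval, in Trad-KAPA (circles) and 3’-LEXO (squares), from 3 against 3 libraries. Open symbols come from the fit without a low-count filter, and among the filled symbols every interval includes 0.

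Whether the kits differed in their diet effect was tested with an interaction term, fitted on the 12 libraries together. Of the 8 members tested, which did not include Nkg7, edgeR called 0, and 0 had an unadjusted p under 0.05. The test called 0% of 14384 genes, with 402 of them at an unadjusted p under 0.05, and DESeq2 called 0. The largest estimates among members had wide errors: 1.73 ± 1.83 for Cd79a, whose 3’-LEXO reads numbered 4 in all, -1.25 ± 0.98 for Cd8a and 1.00 ± 0.69 for Cd3g (log2 ratio of the fold changes, 3’-LEXO over Trad-KAPA, ± SE, adjusted p = 1 for each).

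The kits differed in how many reads they gave to single members. Cd79a had 87 reads over the 6 Trad-KAPA libraries and 4 over the 6 3’-LEXO libraries, and was higher in Trad-KAPA in 6 of 6 mice. Scaled to the library totals, this is a ratio of 19.0 (95% interval 7.17 to 71.4, exact and covering counting error only). The log2 fold change of 3’-LEXO over Trad-KAPA was -4.02 ± 0.82 (edgeR, SE, adjusted p = 1.04e-05). Cd4 had 326 reads in Trad-KAPA and 78 in 3’-LEXO, a ratio of 3.65 (95% interval 2.85 to 4.74), and was also higher in Trad-KAPA in 6 of 6 mice, with a log2 fold change of -1.83 ± 0.22 (adjusted p = 1.52e-06). Cd3d went the other way, with 40 reads in Trad-KAPA and 70 in 3’-LEXO, higher in 3’-LEXO in 6 of 6 mice (log2 fold change 0.99 ± 0.31, adjusted p = 0.00709). The ranges of Cd4 and Cd79a over the 6 libraries did not overlap between the kits.

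Of the 8 members tested, 2 were lower and 1 was higher in 3’-LEXO, 3 of 8 in all. Most genes of the table differed between the kits: 77.0% of 14384 were called, 37.8% lower and 39.2% higher in 3’-LEXO, so the members' share was not above that of other genes. The median log2 fold change was -0.47 over the 8 members and 0.02 over all tested genes. With the mouse as a block, since both kits used the same RNAs, 5 members of the 8 were called, the added ones being Cd3g (-0.74 ± 0.32, adjusted p = 0.0367) and Cd79b (-0.62 ± 0.27, adjusted p = 0.0387). The 77.0% of all genes belongs to the fit without the block. The share in the fit with it is not given here, so these 5 are not set against other genes. Without the block, Cd3g passed when iron-loaded mouse 1 was left out (adjusted p = 0.0304) and Cd79b when control mouse 2 was (adjusted p = 0.0434) or when the low-count filter was dropped (adjusted p = 0.0462). Cd79b was higher in Trad-KAPA in 6 of 6 mice and Cd3g in 5 of 6. Cd3e, Ms4a1 and Cd8a had log2 fold changes of -0.05 ± 0.26, -0.06 ± 0.35 and -0.32 ± 0.49 and did not pass the test in either fit. Reads along a whole transcript grow in number with its length, while reads at its end do not, so these ratios hold length as well as kit.

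**Figure D3:**
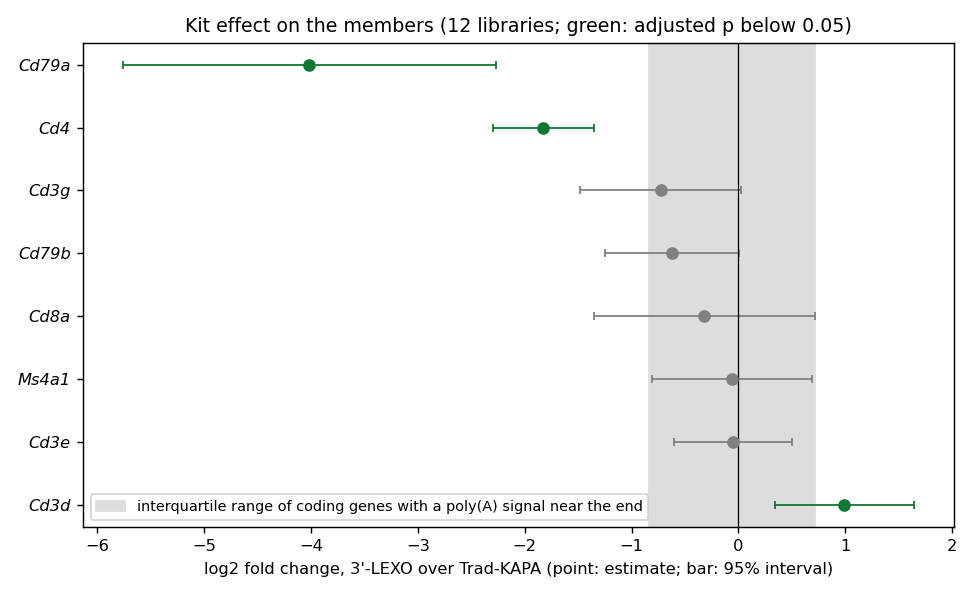
Log2 fold change of 3’-LEXO over Trad-KAPA for the 8 members tested, with 95% intervals, from 12 libraries. Green marks an adjusted p below 0.05 (Cd79a, Cd4, Cd3d), and the grey band is the interquartile range of protein-coding genes that have a poly(A) signal hexamer in their last 50 bases.

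Set beside the sequences above, the member with the lowest 3’-LEXO share was the one without either hexamer. Over all protein-coding genes tested, the median log2 fold change between the kits was -0.12 for the 2581 without a hexamer in the last 50 bases and -0.05 for the 9974 with one. The interquartile ranges were -0.95 to 0.68 and -0.83 to 0.72. Of the genes without a hexamer, 1.55% lay below Cd79a, against 0.892% of those with it. The annotated ends, not the ends used in these livers, were searched, and the table holds no positions of reads. Immediately downstream of Cd79a, the next protein-coding gene, Arhgef1, begins 715 bp away on the same strand. The part of the transcript end in the difference was not tested.

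Levels can be ordered between genes per length in Trad-KAPA and as CPM in 3’-LEXO. Per kilobase of merged exons, Cd79b (1.05 ± 0.253 CPM per kb, SD, n = 6 libraries) and Cd4 (0.923 ± 0.281) were highest and Cd8a (0.168 ± 0.109) was lowest in Trad-KAPA. Every neighbour in that order overlapped the next over the 6 libraries. Per kilobase of the longest protein-coding transcript, Cd3g rose from rank 5 to rank 2 and Cd3e from 7 to 5, since their merged exons include long additional forms. In 3’-LEXO, Ms4a1, Cd4, Cd79b, Cd3d and Cd3e lay between 0.851 and 1.05 CPM on average and could not be ordered. Cd3g (0.658 ± 0.325), Cd8a (0.451 ± 0.267) and Nkg7 (0.344 ± 0.150) followed with overlapping ranges, and only Cd79a (0.0530 ± 0.0640) lay below its neighbour in all 6 libraries without overlap.

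Other genes of the same cells were read from 3 longer lists: 34 genes of the T cell receptor and its signalling, 27 of B and plasma cells and 25 of NK and cytotoxic cells, of which 24 were in the table. Of the T cell list, 17 genes were tested in Trad-KAPA, where 1 was higher and 1 lower on the iron-loaded diet, and 19 in 3’-LEXO, where 2 were higher and 0 lower. The B cell list had 1 lower of 19 tested in Trad-KAPA and 2 lower of 17 in 3’-LEXO, with 0 higher. The NK list had 1 lower of 5 in Trad-KAPA and 0 of 9 in 3’-LEXO, where edgeR gave 2 at an unadjusted p under 0.05. The median log2 fold changes in Trad-KAPA and 3’-LEXO were 0.16 and 0.25 for the T cell list, -0.40 and -0.34 for the B cell list and 0.05 and -0.05 for the NK list, beside 0.02 and 0.01 for all tested genes. Each share rests on 0 to 2 genes and stands beside 17.1% and 6.10% of all tested genes. In Trad-KAPA the T cell list summed to 29.0 to 35.7 CPM in controls and 38.0 to 44.3 CPM in iron-loaded mice, without overlap. In 3’-LEXO its sums overlapped (47.7 to 50.9 against 49.2 to 55.5 CPM). The sums of the B cell list overlapped in Trad-KAPA (52.5 to 95.6 against 45.1 to 52.6 CPM). In 3’-LEXO they did not (53.8 to 78.2 against 37.0 to 48.2 CPM). These sums include Ighm, the gene with the largest summed level of that list, and were not taken without it. The NK list sums overlapped in both kits.

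Ighm, the constant region of the IgM heavy chain, was the B cell gene that was lower in both kits. In Trad-KAPA it had 706, 498 and 325 reads in the controls and 168, 161 and 143 in the iron-loaded mice. In 3’-LEXO it had 361, 317 and 255 against 90, 82 and 75. Every iron-loaded mouse was below every control in both kits. The log2 fold change was -1.64 ± 0.19 in Trad-KAPA (edgeR, adjusted p = 0.00294) and -1.69 ± 0.17 in 3’-LEXO (adjusted p = 0.00136). Ighm had the largest summed level of its list. The members Cd79a, Cd79b and Ms4a1 of the same cells did not pass the test. Bank1, an adaptor of B cell receptor signalling, was named after its values were seen as the other gene lower in 3’-LEXO, with 122, 98 and 76 reads against 44, 27 and 36 (log2 fold change -1.25 ± 0.24, adjusted p = 0.0185). In Trad-KAPA its diets overlapped, with 79, 92 and 33 reads against 20, 51 and 41 (adjusted p = 0.191). Its adjusted p in 3’-LEXO was 0.0667 without control mouse 1 and 0.0631 without control mouse 2.

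Il7r, the receptor chain for interleukin-7 on T cells and other lymphoid cells, was the T cell list gene that was higher in both kits. It had 5, 6 and 5 reads in the controls and 35, 23 and 22 in the iron-loaded mice in Trad-KAPA, and 4, 5 and 8 against 26, 25 and 25 in 3’-LEXO, with no overlap in either kit. The log2 fold changes were 2.31 ± 0.38 (edgeR, adjusted p = 0.00707) and 2.35 ± 0.42 (adjusted p = 0.0110). Without control mouse 2 the adjusted p in 3’-LEXO was 0.0556. The CD3 genes showed no such difference over the same mice.

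The remaining calls in these lists were in 1 kit each with the settings used here, some of them in the other kit too with other settings, and are named because they were few. Zap70, the kinase that binds the phosphorylated CD3 chains, had 67, 92 and 120 reads against 29, 45 and 47 in Trad-KAPA (log2 fold change -1.21 ± 0.34, edgeR, adjusted p = 0.0412) and 169, 179 and 273 against 52, 98 and 91 in 3’-LEXO (-1.12 ± 0.32, adjusted p = 0.0707). It was highest in control mouse 3, in which the summed CD3 genes were lowest, and without that mouse its adjusted p in Trad-KAPA was 0.123. Leaving out control mouse 2 or any 1 iron-loaded mouse also ended that call, with adjusted p from 0.0663 to 0.100, as did summing iron-loaded mice 2 and 3 (0.0724). In 3’-LEXO Zap70 passed with DESeq2 (adjusted p = 0.0180) and without the low-count filter (adjusted p = 4.93e-06). Gata3, a transcription factor of T helper and innate lymphoid cells, had 3, 3 and 9 reads against 11, 16 and 15 in Trad-KAPA (adjusted p = 0.0906) and 10, 15 and 12 against 25, 35 and 32 in 3’-LEXO (log2 fold change 1.55 ± 0.36, adjusted p = 0.0361). S1pr5, a sphingosine phosphate receptor of NK cells and some monocytes, had 152, 102 and 67 reads against 32, 40 and 44 in Trad-KAPA (-1.41 ± 0.26, adjusted p = 0.0116) and 97, 90 and 54 against 30, 39 and 22 in 3’-LEXO (-1.17 ± 0.31, adjusted p = 0.0530). The Gata3 call was lost without any 1 mouse other than iron-loaded mouse 1 (adjusted p = 0.0819 to 0.118), and also with the replicate block (adjusted p = 0.0568), at equal depth (0.0607) and with iron-loaded mice 2 and 3 summed (0.0791). S1pr5 passed in 3’-LEXO with DESeq2 (adjusted p = 0.0210), without the low-count filter (0.000624), at equal depth (0.0489, a single draw) and without iron-loaded mouse 2 (0.0333). Without control mouse 3, Gata3 also passed in Trad-KAPA (adjusted p = 0.0433). For these 3 genes, named because they were called, the diets did not overlap in either kit, and the interaction test called none of them. Of all genes tested, 41.2% in Trad-KAPA and 31.3% in 3’-LEXO had no overlap.

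**Figure D4:**
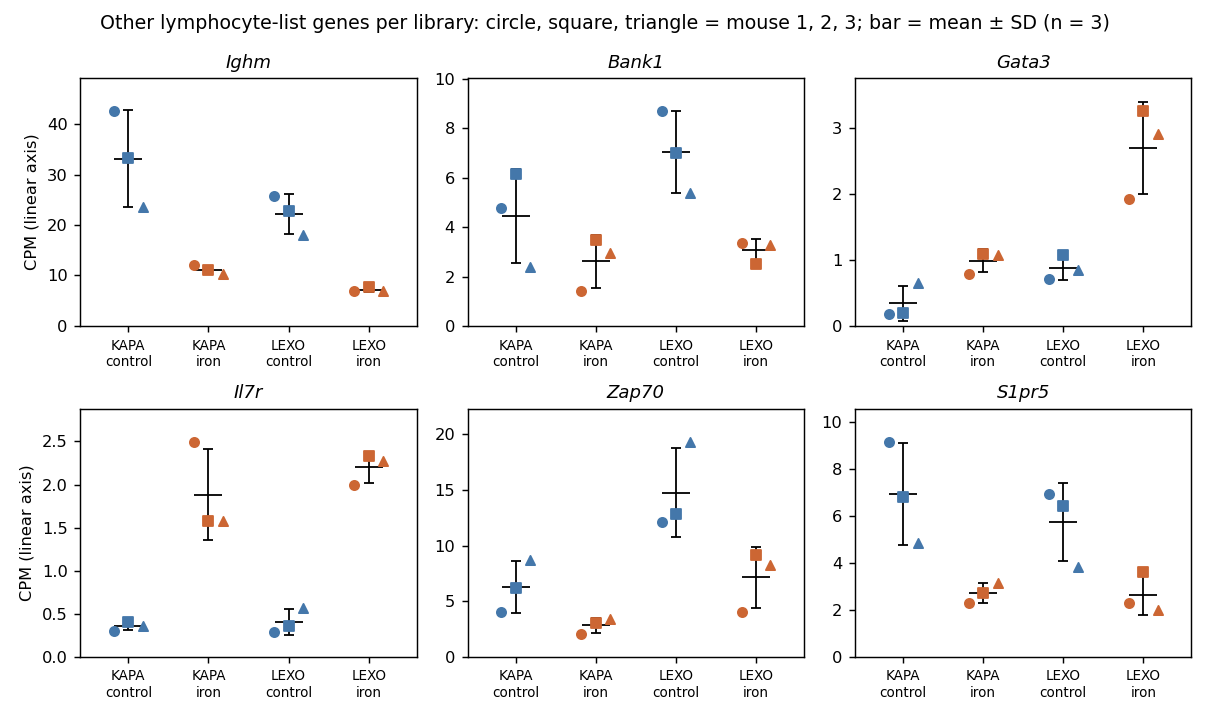
Level in CPM (linear axes) of 6 genes of the longer lymphocyte lists in every library, with circles, squares and triangles for mice 1, 2 and 3 of a diet and bars for the mean ± SD (n = 3). Ighm, S1pr5 and Zap70 lie lower and Il7r and Gata3 higher in every iron-loaded mouse in both kits, while Bank1 overlaps in Trad-KAPA.

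The same libraries were read for lists of genes that mark other cells, as summed levels and as calls. The summed level of 12 pan-leukocyte genes was 67.0 to 115 CPM in the controls and 134 to 136 CPM in the iron-loaded mice in Trad-KAPA, and 72.1 to 112 against 110 to 125 CPM in 3’-LEXO. Of these, edgeR called 2 of 12 higher in Trad-KAPA, Ptprc (log2 fold change 0.69 ± 0.13, adjusted p = 0.0123) and Cd53 (0.73 ± 0.16, adjusted p = 0.0215), and 0 of 11 in 3’-LEXO, with 1 at an unadjusted p under 0.05. Without control mouse 2 the adjusted p was 0.0530 for Ptprc, and leaving out any 1 of 4 mice (controls 2 and 3, iron-loaded 2 and 3) raised that of Cd53 to between 0.0634 and 0.0685, as equal depth (0.0714) and summing iron-loaded mice 2 and 3 (0.0594) raised it above 0.05. Kupffer cell genes, 12 listed, summed to 534 to 840 against 932 to 1064 CPM in Trad-KAPA and 1173 to 1583 against 1546 to 1818 CPM in 3’-LEXO, and edgeR called 2 of 12 and 1 of 12 higher. Monocyte and neutrophil genes, 12 listed, summed to 32.7 to 58.1 against 81.5 to 91.1 CPM and 88.8 to 134 against 214 to 237 CPM, and 4 of 7 and 3 of 8 of those tested were called higher. Dendritic cell genes, 12 listed, summed to 26.8 to 30.4 against 34.2 to 40.1 CPM in Trad-KAPA and to 49.6 to 61.6 against 54.5 to 62.8 CPM in 3’-LEXO. Of those tested, 1 of 8 and 0 of 6 were called higher. Over all genes tested, 17.1% in Trad-KAPA and 6.10% in 3’-LEXO were called in either direction. In Trad-KAPA the sums of these 4 lists did not overlap between the diets, and in 3’-LEXO only those of the monocyte and neutrophil list did not. The part of other immune cells in the levels of shared genes such as Cd4 and S1pr5 was not tested.

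Red cell and platelet genes, 8 listed and led by Hbb-bs, varied widely among the controls, with 21.8, 67.6 and 152 CPM in control mice 1, 2 and 3 in Trad-KAPA and 167, 421 and 1218 CPM in 3’-LEXO. That is the opposite order to the summed members in these 3 mice, picked out after the values were seen. In iron-loaded mice 1, 2 and 3 the red cell and platelet genes stood at 17.4, 27.3 and 29.3 CPM in Trad-KAPA and at 123, 213 and 187 CPM in 3’-LEXO. In neither kit was this the opposite order to the summed members of those mice. Control mouse 3 also had the lowest pan-leukocyte and Kupffer cell sums. Leaving it out left 0 members called in either kit. The 8 hepatocyte genes, led by Alb, summed to 144780 to 156258 against 118740 to 156463 CPM in Trad-KAPA and showed the tissue to be liver. Endothelial (8 genes), stellate (8 genes) and cholangiocyte (6 genes) markers were present as well. Endothelial genes summed to 361 CPM on average on the control and 404 CPM on the iron-loaded diet in Trad-KAPA, with overlap, and to 395 and 311 CPM in 3’-LEXO, without overlap. Stellate genes summed to 358 CPM on both diets in Trad-KAPA, with overlap, and to 500.4 and 452 CPM in 3’-LEXO, without overlap. Cholangiocyte genes, led by Spp1, summed to 25.2 and 36.7 CPM in Trad-KAPA and to 33.4 and 43.7 CPM in 3’-LEXO, without overlap in either kit. Only 3 of the 6 were tested, and edgeR called 1 of 3 higher in each kit. Of the 8 endothelial genes, 2 were called higher in Trad-KAPA, and 1 higher and 1 lower in 3’-LEXO. Of the 8 stellate genes, 1 was called lower in Trad-KAPA and 0 in 3’-LEXO. These calls stand beside 17.1% and 6.10% of all tested genes.

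**Figure D5:**
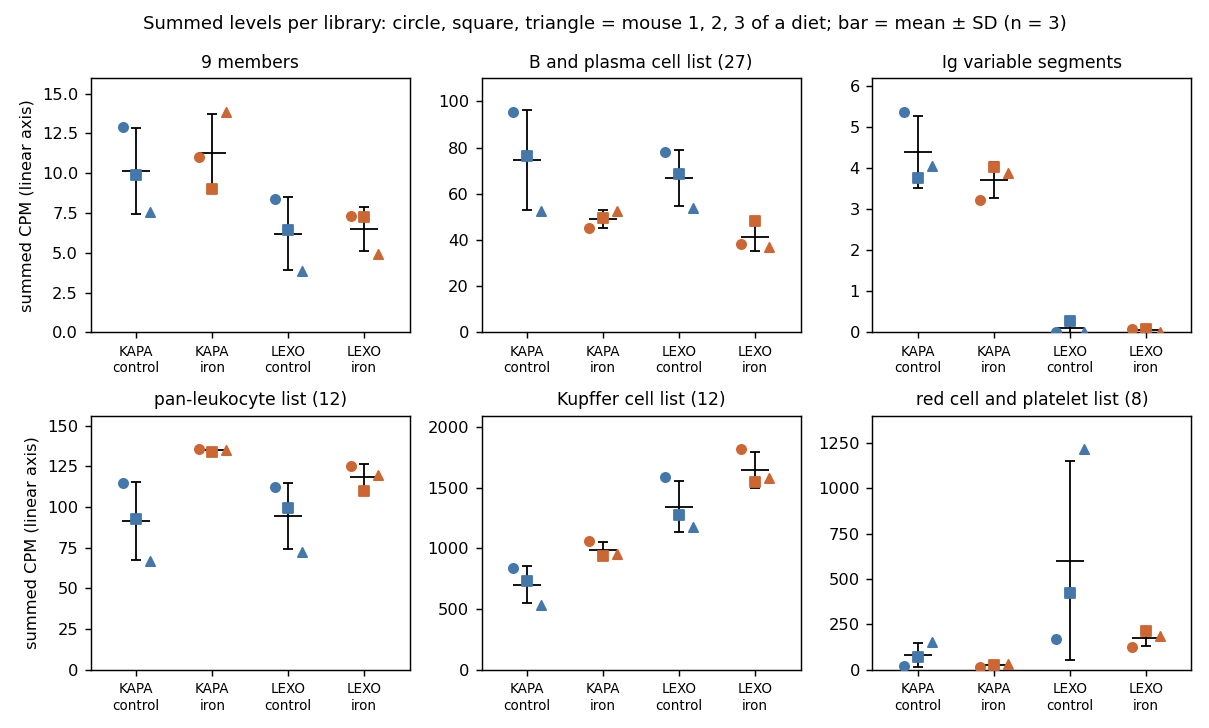
Summed CPM (linear axes) of the 9 members and of 5 other gene lists in every library, with circles, squares and triangles for mice 1, 2 and 3 of a diet and bars for the mean ± SD (n = 3). The members overlap between the diets in both kits, whereas the Kupffer cell and pan-leukocyte sums of Trad-KAPA do not, and control mouse 3 stands at the top of the red cell panel. The B and plasma cell sums, which include Ighm, overlap in Trad-KAPA and do not in 3’-LEXO.

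The 5 genes whose level followed the summed members most closely were Rac2, 4930503L19Rik, Fermt3, Rrp7a and Dok4. Likeness was the lower of the Pearson correlations within each kit, over 6 libraries each, of log2 CPM plus 0.5, among 12117 genes with a mean of at least 10 counts in both kits. It was 0.87 for Rac2, a GTPase of blood cells, 0.87 for 4930503L19Rik, 0.87 for Fermt3, which activates integrins in blood cells, and 0.86 for Rrp7a and Dok4. The points share mice between the kits and library depth within them, and the values are a description of the highest among many genes.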

How the data were processed

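The counts deposited by the authors are reads with a unique position on the exons of a gene. The authors mapped single-end reads of 50 bp with STAR 2.5.3a to GRCm38. The counts are raw, without normalization or removal of duplicates, so intervals from counts cover counting error only. The counting program and annotation are not given in the sources used here. Symbols came from GENCODE M21 (26949 of 27022 identifiers). Totals and CPM used all genes.

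Each diet effect was tested on 3 against 3 libraries, and the kit effect (with diet as covariate) and the interaction on 12, with edgeR 4.0.16 (R 4.3.3, limma 3.58.1): quasi-likelihood F test, TMM, filterByExpr, Benjamini-Hochberg over all tested genes at 0.05. Standard errors come from the fitted weights and the moderated dispersion. DESeq2 1.42.0, its size factors, other filters, an equal depth (10 M reads), the mouse or replicate number as a block, summing iron-loaded mice 2 and 3, and leaving out each mouse were alternatives. Scripts were tested on simulated data. Figures were drawn with matplotlib 3.10.9 under Python 3.11.15.

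Mouse numbers pair the kits because both were made from the same RNAs. Deviations from the group mean correlated at 0.46 to 0.79 between same-numbered libraries (9311 genes), though Trad-KAPA iron-loaded mouse 2 correlated more with mouse 3 (0.63) than with itself (0.55). Chi-square per degree of freedom between these mice was 4.46 and 4.56, against 13.0 to 42.2 for other pairs. The mice are separate animals. The members and lists were chosen with earlier results of these data known. Named were all members, list genes called in both kits, the 5 most alike genes, leading genes of lists and, after their values were seen, single calls. The B cell, hepatocyte and red cell lists were led by the genes given above. The other lists were led by Tcf7 (T cell), S1pr5 (NK), Laptm5 (pan-leukocyte), Cd5l (Kupffer), Lyz2 (monocyte and neutrophil), Irf8 (dendritic), Kdr (endothelial), Dcn (stellate) and Spp1 (cholangiocyte). A summed level weighs most on such a gene.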

Additional observations from a re-analysis of the deposited data

How the results depend on the processing

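All 249 values of the members' diet effects and interaction under the alternatives stayed on the same side of the threshold, and 0 members were called in any of them. These values cover only members tested with the main settings. The diet effects of Cd8a and Nkg7, of Cd3d in Trad-KAPA and of Cd79a in 3’-LEXO are thus not included. Signs could change: Ms4a1 had the other sign in 5 of 13 alternatives in 3’-LEXO (-0.38 to 0.67). Cd3e had it in 3 of 13 in Trad-KAPA (-0.23 to 0.26). The number of all genes called moved. In Trad-KAPA it was 1147 with iron-loaded mice 2 and 3 summed, and 841 to 2803 with 1 mouse left out (lowest without control mouse 2). In 3’-LEXO it was 1313 with DESeq2, 2040 without the low-count filter, 436 with the replicate block, 445 with mice 2 and 3 summed, and 199 to 871 with 1 mouse left out (lowest without control mouse 3). The interaction called 7 genes without the filter and 5 with the replicate block, with 0 to 0 when 1 mouse was left out. For the kit effect, 5 members were called with the replicate block, 1 with a mean of at least 10 counts, which left Cd79a and Cd3d untested, and 3 to 4 with 1 mouse left out. Across the diets replicate numbers share only a number (r of -0.16 to 0.11 between same-numbered libraries within a kit), and the block changed no member's call there. Ighm kept its call in both kits under every alternative. Depth limits the rest: no member but Cd4 had more than 30 reads in any library.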

Other observations

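Variable segments of the antigen receptors, found by symbol, were, like Cd79a, fewer in 3’-LEXO. The 108 immunoglobulin variable segments in the table had 45 to 89 reads per library in Trad-KAPA and 0 to 4 in 3’-LEXO, and the 19 T cell receptor variable segments had 1 to 17 and 0 to 2. Their constant regions lie downstream in the transcript. Of these, Ighm was found at 325 to 706 reads in control mice of Trad-KAPA and 255 to 361 of 3’-LEXO. Ighm was also lower in 3’-LEXO in the kit test (edgeR, log2 fold change -0.60 ± 0.12, SE, adjusted p = 0.000439). Other constant regions differed in direction in that test. Ighd (-0.79 ± 0.30, adjusted p = 0.0248) and Igkc (-0.36 ± 0.15, adjusted p = 0.0362) were lower too. Trbc2 was higher in 3’-LEXO (2.00 ± 0.21, adjusted p = 3.76e-07). Trac (-0.09 ± 0.29), Trbc1 (0.39 ± 0.28), Igha (-0.23 ± 0.38) and Iglc2 (0.71 ± 0.32) did not pass. The part of the position in the transcript in the segment counts was not tested. Many of these segments are near-identical copies, so their single counts are uncertain. On the control and iron-loaded diet, the immunoglobulin segments summed to 4.39 ± 0.866 and 3.71 ± 0.435 CPM in Trad-KAPA (SD, n = 3), with overlapping ranges.

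In the controls, the order of the mice in the CD3 genes and in Zap70 was opposite. The 3 CD3 genes summed to 3.38, 2.55 and 1.59 CPM in control mice 1, 2 and 3 in Trad-KAPA and to 3.22, 1.79 and 1.56 CPM in 3’-LEXO. Zap70 stood at 4.05, 6.16 and 8.67 CPM and at 12.1, 12.8 and 19.4 CPM in the same mice. This order of 3 mice was picked out after the values were seen, and both kits used the same RNAs. In 3’-LEXO the CD3 sums of control mice 2 and 3 rest on 25 and 22 reads, and Zap70 hardly differed between control mice 1 and 2. The iron-loaded mice did not repeat the opposite order. In Trad-KAPA both rose from iron-loaded mouse 1 to 3, with CD3 sums of 2.00, 2.46 and 2.52 CPM and 29, 45 and 47 Zap70 reads. In 3’-LEXO the CD3 sums were 2.99, 2.70 and 2.27 CPM, and Zap70 had 52, 98 and 91 reads.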
